A study of Mus musculus with 6 samples.

Results

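MHC class I antigen presentation was followed through 10 genes chosen by symbol as known parts of the pathway, without a cut on their measured values. They were the class I heavy chain genes H2-K1 and H2-D1, the light chain gene B2m, the peptide transport and loading genes Tap1, Tap2 and Tapbp, the immunoproteasome subunit genes Psmb8, Psmb9 and Psmb10, and Nlrc5, which encodes a transcriptional coactivator of class I genes. All 10 were among the 22913 genes with counts, and all 10 were among the 12827 with enough counts to be tested. The cells were HL-1, an immortal mouse line that came from atrial muscle of a transgenic animal with a viral T antigen. In one group of 3 libraries the cells carried a control plasmid, whose content the labels do not describe. In the other group of 3 they carried a plasmid that overexpresses HSPA1A, an inducible chaperone of the HSP70 family. Transfection was with a lipid reagent, the cells were harvested after 48 h, and polyadenylated RNA was sequenced. The labels describe the transfected gene as human, give no transfection efficiency and do not say whether replicates were separate cultures. The p-values therefore rest on library-to-library spread alone, and this spread may be technical.

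Class I molecules show short peptides from inside the cell to cytotoxic T cells. Proteasomes cut cytosolic proteins into peptides, the TAP1 and TAP2 transporter moves these into the endoplasmic reticulum, and tapasin, the product of Tapbp, holds the empty heavy chain and beta-2-microglobulin near the transporter until a peptide is bound. Interferon raises the whole set: it induces PSMB8, PSMB9 and PSMB10, which replace the catalytic subunits PSMB5, PSMB6 and PSMB7 in newly built proteasomes, and it induces NLRC5, which acts on class I promoters through factors bound at their X and Y boxes. Heart muscle is known for low class I levels at rest.

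Depth was 23849656 to 26897086 counts per library. On the first principal component, which held 34.3% of the variance, HSPA1A replicate 2 lay at -15.1, beyond the control libraries at -8.27 to -4.33, whereas HSPA1A replicates 1 and 3 lay at 15.9 and 18.3. Results that rest on this library are given with and without it. Mouse Hspa1a had 10, 17 and 11 reads in control and 17, 20 and 11 reads in HSPA1A libraries. The count does not check the labels, because how far reads of a human plasmid transcript align to the mouse gene was not tested. Of 16 cardiac muscle marker genes, 14 had counts and 8 averaged at least 1 CPM (read counts scaled to library size with TMM factors). Tnnt2 and Gata4 were present at 39.1 ± 4.5 and 32.3 ± 1.4 CPM in control libraries (SD, n = 3). The defining muscle markers Actc1, Tnni3, Actn2 and Ryr2 were nearly absent, with 3, 4, 0 and 5 reads over the control libraries and 0, 3, 1 and 6 over the HSPA1A libraries. The muscle label is thus only partly matched by the muscle markers. Of 9 fibroblast markers, 8 had counts and 5 averaged at least 1 CPM. The collagen genes Col3a1 and Col1a2, at 460.4 ± 9.8 and 303.8 ± 5.9 CPM in control libraries, made up most of the fibroblast sum given next. Lum and Thy1 had 0 reads over the control and 1 read each over the HSPA1A libraries. Postn stood at 0.548 ± 0.129 CPM in control libraries. Fibroblast markers summed to 850 to 886 CPM (control) and 786 to 927 CPM (HSPA1A), and the muscle markers to 1194 to 1203 and 1135 to 1191 CPM. Most of the muscle sum came from Des, at 644 ± 17 CPM, and Tpm1, at 471 ± 8.7 CPM in control libraries. Of the leukocyte genes, which would mark professional antigen-presenting cells, Ptprc and Tyrobp were near 0. Ptprc, the pan-leukocyte gene, had 2 reads over the control and 0 over the HSPA1A libraries, and Tyrobp had 1 and 0. Cd68 stood at 3.96 ± 1.12 CPM (control) and 5.31 ± 1.64 CPM (HSPA1A), and Flt3 at 3.19 ± 0.35 and 3.21 ± 0.41 CPM. In the macrophage and dendritic cell list 10 of 14 genes had counts, with sums of 22.7 to 25.7 CPM (control) and 21.6 to 30.1 CPM (HSPA1A), mostly from Cd14, at a mean of 16.0 CPM over all libraries. Lymphocyte markers summed to at most 0.240 CPM and endothelial markers to at most 2.23 CPM in any library. In the cardiac, macrophage, fibroblast and endothelial lists 0 of 9, 3, 6 and 2 tested genes passed edgeR's adjusted test, and 1, 0, 1 and 0 had an unadjusted p under 0.05 (Des and Col1a1, both with lower means in HSPA1A libraries). No lymphocyte marker was abundant enough to be tested.

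The class I loci carry the control sequences by which the pathway is known, and 8 of the 10 genes had an entry among the RefSeq promoters of GRCm38.p6, each 250 bases before to 50 bases after the start. Shown here are the bases before the start of the 3 genes that make up the surface molecule, which share an arrangement, and the interval between Psmb9 and Tap1, which are transcribed away from each other. Capitals mark matches to a kB site (the run of 10 capitals in H2-K1 and H2-D1), an interferon-stimulated response element core (ISRE, GAAA, any 2 bases, GAAA), the CRE core of the X2 box (TGACG), a Y box (CCAAT, or ATTGG on the other strand) and a GAS element (TTCNNNGAA, with no match in the sequences shown). Both strands were searched, for the kB site in that exact form of 10 bases only. No matches overlapped in these sequences.
H2-K1, minus strand, chr17:34000348-34000597: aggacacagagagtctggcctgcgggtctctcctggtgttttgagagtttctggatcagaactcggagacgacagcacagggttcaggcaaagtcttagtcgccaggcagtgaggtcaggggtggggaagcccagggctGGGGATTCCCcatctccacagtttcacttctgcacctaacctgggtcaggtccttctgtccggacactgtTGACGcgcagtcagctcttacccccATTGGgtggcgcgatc
H2-D1, plus strand, chr17:35262844-35263093: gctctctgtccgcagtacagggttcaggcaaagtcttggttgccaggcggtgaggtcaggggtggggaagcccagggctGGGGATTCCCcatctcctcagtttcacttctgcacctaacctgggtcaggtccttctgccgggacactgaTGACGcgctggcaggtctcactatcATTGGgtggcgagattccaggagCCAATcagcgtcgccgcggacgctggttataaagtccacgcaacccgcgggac
B2m, plus strand, chr2:122147437-122147686: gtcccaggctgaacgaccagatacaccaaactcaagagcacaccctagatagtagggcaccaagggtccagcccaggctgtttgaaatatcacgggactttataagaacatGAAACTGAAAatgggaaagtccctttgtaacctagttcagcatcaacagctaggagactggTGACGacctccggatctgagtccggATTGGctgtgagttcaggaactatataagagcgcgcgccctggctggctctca
Tap1 and Psmb9, plus strand, chr17:34187331-34187555: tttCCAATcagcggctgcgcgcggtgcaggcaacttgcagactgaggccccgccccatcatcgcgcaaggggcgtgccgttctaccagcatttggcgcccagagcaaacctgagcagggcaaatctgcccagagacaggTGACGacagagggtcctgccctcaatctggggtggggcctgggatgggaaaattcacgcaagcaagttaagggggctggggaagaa

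H2-K1 and H2-D1 both hold the kB site in the exact form searched, 111 and 171 bases before the start. This form was found in 0.107% of the 32851 promoters and in no other of the 8 members. Other forms of the kB site were not searched, so their absence from B2m or any other promoter is not shown. In H2-K1 and H2-D1 the site is followed after 70 bases by the CRE core, and after another 25 bases by the Y box. Distances run from first base to first base. B2m has the same 25 bases from its CRE core, at position -78, to its Y box, at -53, and has an ISRE core at -139. The spacing of 25 bases was noticed in these sequences and then counted, and 31 promoters (0.0944%) hold it, among them those of H2-K1, H2-D1, B2m and the class I-like gene H2-M3. Across the 8 members, 5 hold a CRE core (20.8% of all promoters) and 6 a Y box (37.4%). An ISRE core is held by 1 (3.44%) and a GAS element by 1, Psmb8 (8.3%). Both were searched in the stated form only. The absence of other forms of interferon response sequence from H2-K1, H2-D1 or any other promoter is therefore not shown. Tap1 and Psmb9 are both in the counts of CRE cores and Y boxes through the same sites, in the interval they share. The 225 bases between the RefSeq starts of Tap1 and Psmb9 hold 1 CRE core and 1 Y box and have a GC content of 61.3%. The gene coordinates given below are from GENCODE, and its starts can differ from the RefSeq starts used here. By those coordinates Tap1 and Psmb9 overlap, and the H2-D1 window shown lies inside the H2-D1 gene. Such matches describe the letters in these windows only.

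Levels within the pathway were compared per gene length on the deposited FPKM scale, which divides fragments by transcript length and library size, and their control means ran from 0.297 to 1403 FPKM. B2m was the highest member at 1403 ± 8.2 FPKM in control libraries (SD, n = 3), with 50 of the 22833 listed genes above it. H2-D1 followed at 115 ± 5.1 and H2-K1 at 57.3 ± 1.2 FPKM, so that H2-D1 stood at 2.01 ± 0.13 times the level of H2-K1 in control and 2.10 ± 0.09 times in HSPA1A libraries. B2m stood at 8.15 ± 0.25 times the sum of these heavy chain genes in control and 8.67 ± 0.25 times in HSPA1A libraries (SD, n = 3 each). The other class I genes use the same light chain and are not in this sum.

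The transport and loading genes formed a middle and a low tier. Tapbp stood at 8.97 ± 0.67 FPKM in control libraries, whereas Tap2 and Tap1, the transporter genes themselves, were at 1.11 ± 0.22 and 0.833 ± 0.081 FPKM, with libraries that overlapped each other. Nlrc5 stood at 2.75 ± 0.09 FPKM. Psmb10 was next above it at 4.61 ± 1.14 FPKM, and Psmb8 and Psmb9 were the lowest members at 0.693 ± 0.047 and 0.297 ± 0.032 FPKM. Within the control group, neighbours in this order did not overlap in their libraries except for Tap1 and Tap2.

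The immunoproteasome genes were scarce beside the genes they replace. Psmb5, Psmb6 and Psmb7 together stood at 527 ± 29 FPKM in control and 540 ± 25 FPKM in HSPA1A libraries, whereas Psmb8, Psmb9 and Psmb10 together stood at 5.60 ± 1.17 and 6.70 ± 0.65 FPKM (SD, n = 3 each). The immunoproteasome sum was therefore 0.881%, 1.21% and 1.08% of the constitutive sum in control replicates 1 to 3, against 1.31%, 1.34% and 1.09% with HSPA1A. The lowest HSPA1A library lay between control libraries, so the groups overlapped. By pair, Psmb10 was at 3.17 ± 0.66% of Psmb7, Psmb8 at 0.455 ± 0.046% of Psmb5 and Psmb9 at 0.129 ± 0.010% of Psmb6 in control libraries. In HSPA1A libraries the same shares were 3.51 ± 0.65%, 0.556 ± 0.053% and 0.203 ± 0.081%.

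**Figure D1:**
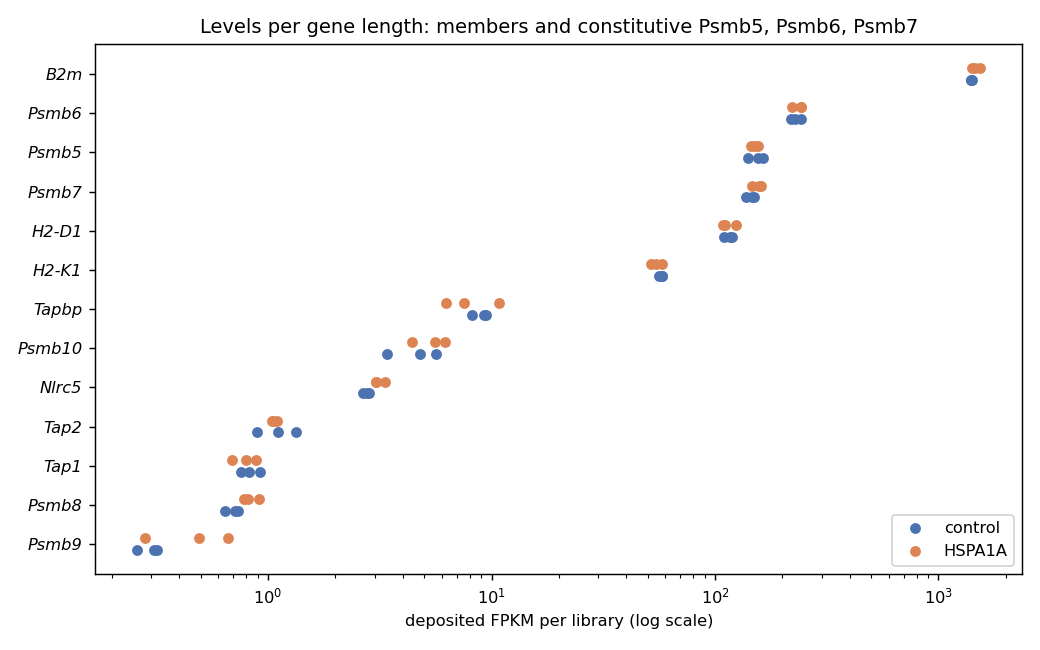
Deposited FPKM on a log axis (horizontal) for the 10 class I presentation genes and the constitutive subunit genes Psmb5, Psmb6 and Psmb7 (vertical, ordered by control mean), 1 point per library, blue for control and orange for HSPA1A. B2m lies at 1396 to 1539 FPKM, and Psmb8 and Psmb9 lie below 1 FPKM in all 6 libraries.

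The main comparison asked whether HSPA1A overexpression went with a different level of these genes. None of the 10 passed the quasi-likelihood test of edgeR at a Benjamini-Hochberg adjusted p of 0.05, adjusted over all tested genes. Over all tested genes 0.179% were called in this fit (0.0234% higher and 0.156% lower), so that a count of 0 among 10 does not set the members apart. DESeq2 and limma-voom, which called 0.499% and 0.164% of all tested genes, also called 0 of the 10, as did edgeR with no filter on low counts, where 0.895% of all genes were called. At an unadjusted p under 0.05 there were 2 members, Nlrc5 and B2m, both with higher values in HSPA1A libraries, where 8.59% of all tested genes had such a p. The median log2 fold change of the members was 0.089, beside 0.0029 over all tested genes, and 6 of 10 values were positive, beside 51.0% of all tested genes. For Nlrc5, B2m and Psmb8 every HSPA1A library stood above every control library, which held for 7.30% of all tested genes. No member had the groups apart in the other direction, which held for 7.17%.

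Nlrc5 (ENSMUSG00000074151.10, chromosome 8, 94434356 to 94527272, plus strand of GRCm38) had the smallest p of the members. Its level was 22.1, 21.2 and 20.5 CPM in control replicates 1 to 3, against 24.7, 23.6 and 27.3 CPM with HSPA1A. All HSPA1A libraries were above all control libraries, by an amount that did not pass the test: the log2 fold change was 0.25 ± 0.07 (SE, 95% interval 0.08 to 0.41, edgeR adjusted p = 0.434). Without HSPA1A replicate 2 the log2 fold change was 0.29 with an adjusted p of 0.0173, in a fit that called 10.2% of all tested genes. In the other 5 fits that left out a library the adjusted p ranged from 0.655 to 0.916. Nlrc5 overlaps 9330175E14Rik on the other strand, and strand use in the counting was not given in the sources used here.

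B2m (ENSMUSG00000060802.8, chromosome 2, 122147686 to 122153083, plus strand), the light chain of every classical class I molecule, stood at 1298, 1258 and 1272 CPM in control and at 1357, 1409 and 1398 CPM in HSPA1A replicates 1 to 3. The groups did not overlap, and their means differed by a factor of 1.09. The log2 fold change of 0.12 ± 0.05 (SE, 95% interval 0.01 to 0.23) missed the threshold (edgeR adjusted p = 0.543). It was 0.086 when libraries were scaled by their totals alone and 0.064 on the log2(FPKM + 1) scale, where the lowest HSPA1A library, at 1414.29 FPKM, barely exceeded the highest control library, at 1412.25 FPKM. B2m overlaps Patl2 on the other strand.

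The heavy chain genes, which carry the peptide groove, did not pass the test and had narrow intervals around a ratio of 1. H2-K1 (ENSMUSG00000061232.13, chromosome 17, 33996017 to 34000347, minus strand) was at 102, 99.4 and 96.7 CPM in control replicates 1 to 3, against 99.8, 101 and 94.97 CPM with HSPA1A. H2-D1 (ENSMUSG00000073411.9, chromosome 17, 35262730 to 35267499, plus strand) was at 245, 257 and 264 CPM in control replicates 1 to 3, against 256, 279 and 261 CPM with HSPA1A. Libraries of both groups were interleaved for both genes. The 95% interval of the HSPA1A to control ratio ran from 0.918 to 1.07 for H2-K1 and from 0.955 to 1.13 for H2-D1, and the adjusted p-values were 0.962 and 0.816 (edgeR). Class I genes are close relatives, so reads may be shared between them. In the longest GENCODE M21 transcript of H2-D1, 4.64% of windows of 100 bases occur exactly in transcripts of other genes, mostly H2-Q1, and in H2-K1 0% do.

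**Figure D2:**
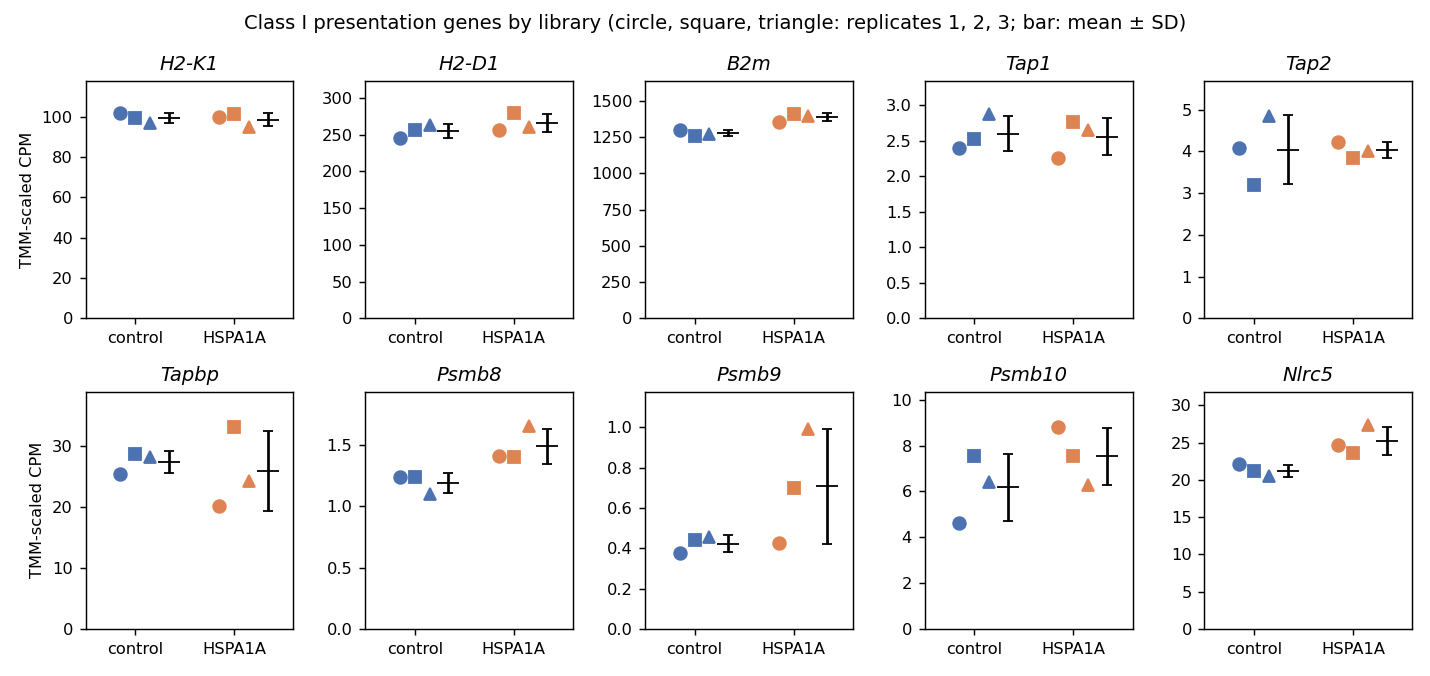
TMM-scaled CPM (vertical, each panel from 0 on its own scale) of the 10 genes by group (horizontal), with a circle, square and triangle for replicates 1, 2 and 3 and a bar for mean ± SD. The HSPA1A points of Nlrc5, B2m and Psmb8 lie above all control points, and those of the other 7 genes overlap the control points.

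Of the peptide transport and loading genes, 0 of 3 passed the test, and all had log2 fold changes just below 0 that turned positive with one or another library left out. Tap1 (chromosome 17, 34187553 to 34197225, plus strand), which encodes 1 subunit of the transporter, had 64, 63 and 76 reads in control replicates 1 to 3, against 53, 75 and 64 reads with HSPA1A. Tap2 (chromosome 17, 34203527 to 34216321, plus strand), the gene of the other subunit, had 109, 80 and 128 reads in control replicates 1 to 3, against 99, 104 and 97 reads with HSPA1A. At these depths the 95% intervals of the ratio were wide, 0.761 to 1.28 for Tap1 and 0.770 to 1.28 for Tap2, with adjusted p-values of 0.980 and 0.988 (edgeR). Tap1 overlaps Psmb9, and Tap2 overlaps Gm15821 and Gm20496, on the other strand.

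Tapbp (chromosome 17, 33915899 to 33929292, plus strand) spread far more within the HSPA1A group, with an SD of 6.62 CPM, than within the control group, with an SD of 1.79 CPM. It stood at 25.4, 28.7 and 28.2 CPM in control replicates 1 to 3, against 20.2, 33.1 and 24.3 CPM with HSPA1A. HSPA1A replicate 2 was the highest of the 6 libraries, and replicates 1 and 3 were the lowest. The log2 fold change was -0.08 ± 0.15 (SE, adjusted p = 0.904, edgeR) with all libraries, -0.30 with an adjusted p of 0.0337 without HSPA1A replicate 2 (a fit that called 4.94% of all tested genes lower), and 0.07 without HSPA1A replicate 1. Tapbp overlaps Zbtb22 on the same strand and Gm19412 on the other, so its reads cannot all be assigned with certainty.

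The immunoproteasome genes had the largest log2 fold changes of the 10, all positive, and 0 of 3 passed the test. Psmb9 (chromosome 17, 34181987 to 34187764, minus strand), which takes the place of Psmb6, had 10, 11 and 12 reads in control replicates 1 to 3, against 10, 19 and 24 reads with HSPA1A. HSPA1A replicates 2 and 3 were above the controls and replicate 1 was among them, at 0.427 CPM against 0.375 to 0.454 CPM. Its log2 fold change was 0.74 ± 0.36 (SE, 95% interval -0.06 to 1.54, edgeR adjusted p = 0.608). The value ranged from 0.43 without HSPA1A replicate 3 to 0.98 without HSPA1A replicate 1. On GRCm38 the annotated Psmb9 overlaps the start of Tap1 on the other strand.

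Psmb8 (chromosome 17, 34197721 to 34201454, plus strand), which takes the place of Psmb5, had 33, 31 and 29 reads in control replicates 1 to 3, against 33, 38 and 40 reads with HSPA1A, or 1.10 to 1.24 against 1.40 to 1.65 CPM. Its groups did not overlap after scaling, and its log2 fold change was 0.32 (95% interval -0.15 to 0.78, edgeR adjusted p = 0.713). Psmb10 (chromosome 8, 105935735 to 105938444, minus strand), which takes the place of Psmb7, stood at 4.62, 7.53 and 6.39 CPM in control replicates 1 to 3, against 8.79, 7.53 and 6.29 CPM with HSPA1A. Control replicate 1 was the lowest and HSPA1A replicate 1 the highest of the 6, and the rest were interleaved. The log2 fold change of 0.29 (95% interval -0.11 to 0.69, adjusted p = 0.694, edgeR) was 0.11 without control replicate 1 and was 0.45 without control replicate 2. Psmb8 overlaps Gm20496 and Psmb10 overlaps Gm16156 on the other strand.

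**Figure D3:**
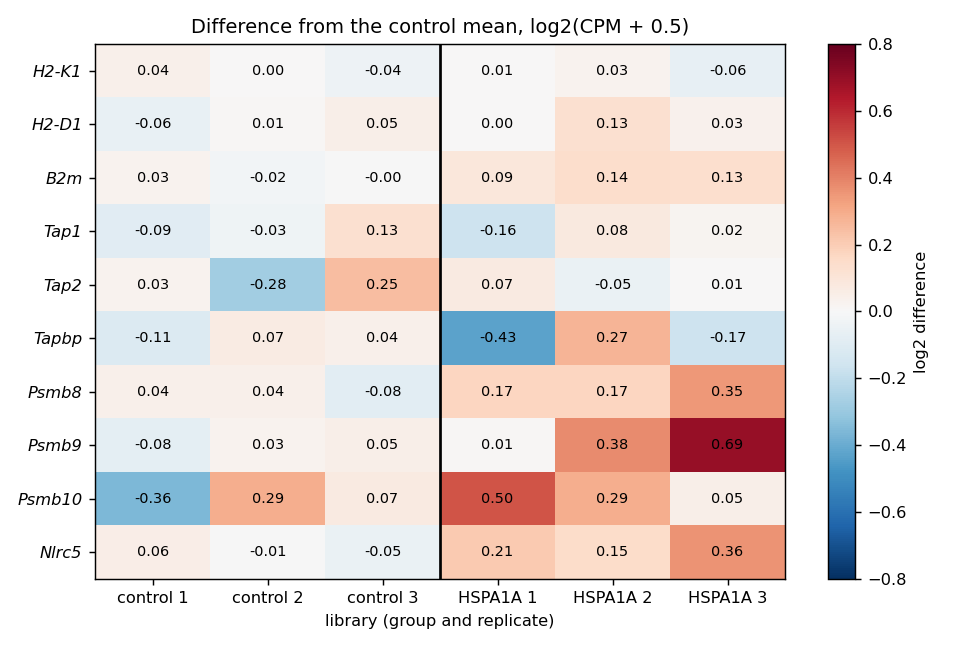
Difference of each library (columns) from the control mean for each of the 10 genes (rows), in log2(CPM + 0.5), with the value printed in each cell and red above and blue below the mean. H2-D1, B2m, Psmb8, Psmb9, Psmb10 and Nlrc5 are above the mean in all 3 HSPA1A libraries. In HSPA1A replicate 1, H2-D1 and Psmb9 are so by only 0.003 and 0.006. Tapbp is above the mean in HSPA1A replicate 2 alone of that group.

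By library, 8, 9 and 8 of the 10 genes were above the control mean in HSPA1A replicates 1 to 3, and 5, 6 and 6 in control replicates 1 to 3. Over all tested genes the share above that mean was 49.4% to 50.9% in the 6 libraries. The members' median difference in log2(CPM + 0.5) was 0.039, 0.15 and 0.040 with HSPA1A, against -0.016, 0.0046 and 0.045 in the controls. The medians of HSPA1A replicates 1 and 3 thus lay within the control range. HSPA1A replicate 2, which lay on the controls' side of the first principal component but beyond their range, had the highest of these medians. The part of the library's other differences in this value was not tested.

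The remaining genes of the pathway were taken from lists of its parts. Of 33 other class I and class I-like genes, 25 had counts and 16 were tested, with 0 called, 1 higher and 1 lower at an unadjusted p under 0.05, and a median log2 fold change of -0.057. H2-M10.1, a nonclassical class I gene, stood at 6.38, 6.49 and 6.54 CPM in control replicates 1 to 3, against 10.8, 6.94 and 10.8 CPM with HSPA1A. HSPA1A replicate 2 lay near the controls and the other HSPA1A libraries far above them. The log2 fold change of 0.55 did not pass the test with all libraries (adjusted p = 0.424, edgeR), and it was 0.74 with an adjusted p of 0.000650 without HSPA1A replicate 2. H2-Q4, a Qa-region class I gene, was at 31.3 ± 0.6 CPM (control) and 26.8 ± 2.0 CPM (HSPA1A), the groups apart in the other direction (log2 fold change -0.22, adjusted p = 0.434), with an adjusted p of 0.0125 and a log2 fold change of -0.28 without HSPA1A replicate 2. Of windows of 100 bases in its transcript, 2.24% occur in transcripts of other genes. H2-T10, with 29 reads over the control and 49 over the HSPA1A libraries, had a log2 fold change of 0.82 and an adjusted p of 0.580 (edgeR).

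Peptide trimming and loading genes outside the 10 had 0 of 14 called, 1 with an unadjusted p under 0.05 and a median log2 fold change of 0.037. Without HSPA1A replicate 2, Sec61g and Sec61b were called higher. Sec61g, which encodes a subunit of the translocon through which class I chains enter the endoplasmic reticulum, stood at 126.1 ± 7.2 CPM (control) and 149 ± 16 CPM (HSPA1A), with an edgeR adjusted p of 0.477. The log2 fold changes of Bcap31, an endoplasmic reticulum sorting receptor gene, and Sec61b, another translocon subunit gene, were 0.06 and 0.10 (adjusted p = 0.764 and 0.773). The chaperone genes of the loading complex were far more abundant than Tapbp per gene length, with Calr at 937 FPKM, Pdia3 at 450 FPKM and Canx at 160 FPKM as control means. Of the constitutive catalytic subunits and the proteasome activator, 0 of 8 were called, 2 had an unadjusted p under 0.05 and the median was 0.094. The activator gene Psme2, itself induced by interferon, stood at 71.6 ± 8.9 CPM (control) and 82.7 ± 2.9 CPM (HSPA1A), with a log2 fold change of 0.21 and an edgeR adjusted p of 0.528. Its groups were barely apart in CPM, with 79.3 in the highest control and 79.6 in the lowest HSPA1A library, and overlapped in FPKM. Psmb5, Psmb6 and Psmb7 had log2 fold changes of 0.03, 0.10 and 0.15, the last with an adjusted p of 0.548 (edgeR), and Psme4, another activator gene, had 0.09 (adjusted p = 0.657). Without HSPA1A replicate 2, the fit that called 5.27% of all tested genes higher called Psmb6, Psmb7 and the assembly gene Pomp among these 8 genes.

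Among the regulators of class I transcription and interferon signalling, 34 of 37 genes were tested and 2 fell, both in the NF-kB family, where 0.156% of all tested genes were called lower. Relb fell from 24.1 ± 1.1 to 14.8 ± 0.8 CPM (log2 fold change -0.70, adjusted p = 0.00241) and Nfkb2, the gene of its usual partner, from 68.1 ± 0.4 to 50.3 ± 1.2 CPM (log2 fold change -0.44, adjusted p = 0.00423, edgeR). Both calls were known from earlier results of these data and are not independent evidence. Without HSPA1A replicate 2, 6 of the 34 genes were called lower, Relb, Nfkb2, Nfkb1, Rela, Stat3 and Tyk2, and 1 higher, Usp18, in a fit that called 4.94% of all tested genes lower and 5.27% higher. In that fit the fibroblast markers Col1a1 and Col3a1 were called lower too, and their part in these results was not tested. Nfkb2 overlaps Psd on the other strand. H2-K1 and H2-D1, whose promoters hold the kB site shown above, had ratios near 1 in the same libraries. Which factors occupy these sites was not measured.

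The other regulators of that list did not pass the test. Irf1, a factor that binds class I promoters, had a log2 fold change of -0.17 and Rfx5, a subunit of the X-box factor with which NLRC5 acts, of -0.14, with adjusted p-values of 0.688 and 0.816 (edgeR). Usp18, an interferon-induced brake on the interferon receptor that was named after its values were seen, had a log2 fold change of 0.61 and an adjusted p of 0.146, and DESeq2 called it higher (adjusted p = 0.000120). The median of the 34 genes was -0.036. In edgeR 2 of them were higher and 3 lower at an unadjusted p under 0.05, where 8.59% of all tested genes had such a p. The 2 higher were Usp18 and Irf7. Irf7 stood at 26.2 ± 5.9 CPM (control) and 34.3 ± 4.5 CPM (HSPA1A), with groups that overlapped. Its log2 fold change was 0.39 with an edgeR adjusted p of 0.517.

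Class II presentation, the pathway of professional antigen-presenting cells, was close to silent. Of 13 genes, 9 had counts and 3 were tested, with 0 called and 1 at an unadjusted p under 0.05. The class II coactivator gene Ciita, the relative of Nlrc5, had 1 read over all 6 libraries, and H2-Eb1 had 0 reads over the control and 5 over the HSPA1A libraries. Cd74, the invariant chain gene, stood at 0.831 ± 0.159 CPM (control) and 0.580 ± 0.359 CPM (HSPA1A). Ifi30, a lysosomal thiol reductase gene, accounted for most of the list's counts, at 7.92 to 10.3 CPM (control) and 10.6 to 11.5 CPM (HSPA1A), with an edgeR adjusted p of 0.553. H2-DMa, a peptide exchange factor gene, had a log2 fold change of -0.25 (adjusted p = 0.825).

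**Figure D4:**
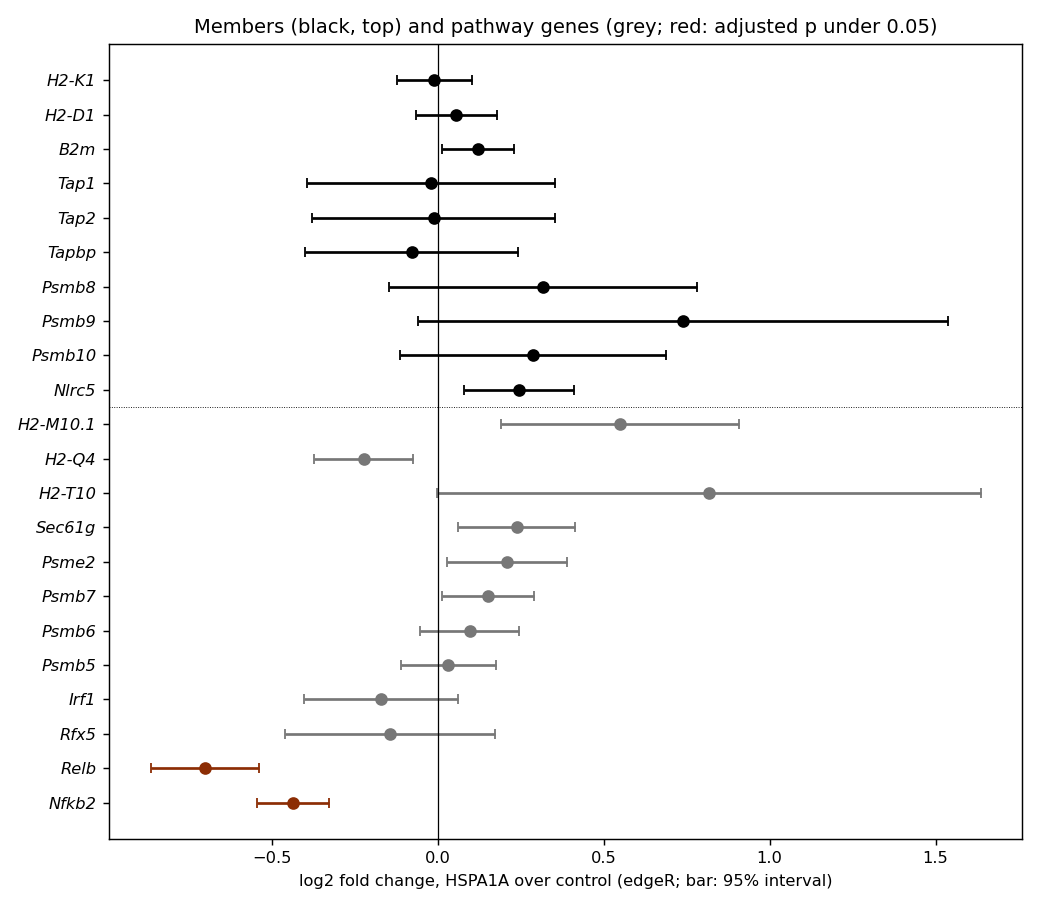
Log2 fold change of HSPA1A over control (horizontal) with its 95% interval from edgeR for the 10 members (black, above the dotted line) and 12 pathway genes below it (grey, or red where the adjusted p is under 0.05). The intervals of Nlrc5 and B2m lie above 0 without passing the adjusted test, and Relb and Nfkb2 are the genes of this plot that passed it.

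Genes with the pattern most like that of the members were sought among 9707 tested genes with a mean of at least 5 CPM. The measure was Pearson's r over the 6 libraries between log2(CPM + 0.5) of a gene and the mean of the 10 members' standardised values. Bdp1 had an r of 0.997 (Spearman's rho 0.943), Gsta3 0.984 (0.943), Prpf4b 0.984 (1.0) and Opa3 0.968 (0.943). Without HSPA1A replicates 2 and 3, the libraries farthest from the median, r was 0.974, 0.918, 0.898 and 0.919 over 4 libraries. An r of at least 0.9 was reached by 42 of the 9707 genes, and these values share libraries and scaling and were chosen as the highest, so they are a description without a test. None of these 4 genes passed edgeR's test, with adjusted p-values from 0.155 to 0.621.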

How the data were processed

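Libraries of 6 HL-1 samples were made from polyadenylated RNA with a stranded kit and read from both ends, per the labels' protocols. TopHat2, bcl2fastq, edgeR and the build GRCm38 are named in the submitters' processing notes. Which program counted reads, with which annotation and strand setting, was not given in the sources used here. Per the files, the authors deposited whole read counts for 22913 genes and FPKM for 22833 genes, the latter with 2 decimals. No sample column was left unused (0).

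Counts were scaled by TMM and filtered by filterByExpr (minimum count 10, minimum total 15), then tested with glmQLFit and glmQLFTest of edgeR 4.0.16 under R 4.3.3, with Benjamini-Hochberg adjustment over all 12827 genes kept, a threshold of 0.05 and no covariates. The biological coefficient of variation was 0.0688. Standard errors and 95% intervals came from the same fit. Libraries within a group differed by more than counting noise (chi-square per degree of freedom from 2.78 to 28.1), so none was a copy. Differences by library used log2(CPM + 0.5). Alternatives were DESeq2 1.42.0, limma-voom and limma-trend (limma 3.58.1) on log2 of FPKM plus 1 or 0.1, other scalings and filters, a replicate block and each library left out. The fits were tested on simulated data. Coordinates came from GENCODE M21, promoters from RefSeq, and figures were drawn with matplotlib 3.10.9.

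The members and lists were chosen with earlier results of these data known. Named genes were the members, the called genes of each pathway list or up to 3 with the smallest p (marker lists are given as sums), Psmb5, Psmb6, Psmb7, Irf1, Rfx5 and Ciita, and the 4 most like the members. A further gene of this rule is not reported here. Other genes, such as Usp18, Irf7, Calr and the muscle, fibroblast and leukocyte markers, were named for their role or after their values were seen.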

Additional observations from a re-analysis of the deposited data

How the results depend on the processing

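The count of members called was 0 under 15 of 16 alternatives. The exception was the fit without HSPA1A replicate 2, with 1 member called higher, Nlrc5, and 1 lower, Tapbp, so that leaving out single libraries gave 0 to 1 in each direction. The members' median log2 fold change lay between 0.068 and 0.13 with a library left out and was -0.0024 on log2(FPKM + 1) with a mean FPKM of at least 1, where 7 members remained. The number of all genes called moved more. With 3 higher and 20 lower in the fit described, there were 1 higher under DESeq2-type size factors, library totals alone or a filter of 5 CPM, 26 higher and 38 lower with DESeq2, and 94 higher and 111 lower with no filter. Limma-trend gave 5 higher and 10 lower on log2(FPKM + 1), 5 higher and 13 lower with a pseudocount of 0.1, and 0 higher with a mean FPKM of at least 1. Leaving out 1 library gave 0 to 683 higher and 10 to 640 lower, the upper values without HSPA1A replicate 2.

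With the replicate number as a block, 3 genes were higher and 13 lower, and no member was called (0 of 10). Same-numbered libraries deviated from their group means with correlations of -0.10, -0.0015 and 0.085. Those of differently numbered libraries ran from -0.090 to 0.091, so no effect shared by replicate number was visible. With 3 libraries per group these values cannot settle whether the labels' numbers pair the samples.

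Of 153 single-gene values, 139 kept direction and side of the threshold, 2 passed it (Nlrc5 and Tapbp, above) and 12 changed sign, all in members with values close to 0. Tap2 was at 0.0036 with limma-voom, 0.0041 with the replicate block, 0.14 without control replicate 3 and 0.024 without HSPA1A replicate 2. With a library left out, H2-K1 ranged from -0.029 to 0.017, Tap1 from -0.080 to 0.059, Tap2 from -0.15 to 0.14 and Tapbp from -0.30 to 0.071. H2-K1 was at 0.0092 without control replicate 1 and 0.017 without HSPA1A replicate 3. Tap1 was at 0.058 without control replicate 3 and 0.059 without HSPA1A replicate 1, where Tapbp was at 0.071. H2-D1 was at -0.0024 in all 3 fits of FPKM. B2m, Psmb8, Psmb9, Psmb10 and Nlrc5 stayed positive throughout. The causes were not tested. Depth limits Psmb9 and Psmb8 most, with 33 and 93 reads over the control libraries.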
